A study of Mus musculus with 2 samples.

Results

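The cell cycle and replication licensing genes of the mouse were examined for H3K4me3, the histone mark of active promoters, in group 2 innate lymphoid cells (ILC2s) of the lung. Members were taken by gene name, as autosomal protein-coding genes of the GENCODE annotation of GRCm38 whose symbols are those of the A to E cyclins, CDKs, CDK inhibitors, MCM, ORC, CDC or E2F families, leaving out Cdkn1c. This gave 92 genes of 20807 autosomal protein-coding genes. The names also take in genes without a cell cycle role, since 11 members encode CDC42, a GTPase of the actin cytoskeleton, or its partners, 9 have other functions, and Cdc5l, a splicing factor, was put in no role. The remaining 71 were grouped by role, among them CDK family kinases that act in transcription or in other processes and the repair helicase genes Mcm8 and Mcm9.

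The study asked whether maternal asthma in pregnancy alters ILC2s of the offspring. C57BL/6J females of 6 to 8 weeks were given alum alone (25 µl in 200 µl) or with 100 µg ovalbumin (OVA) by the intraperitoneal route 21 and 7 days before the experiment's day zero. They were mated with untreated males and received PBS or 500 µg OVA in 20 µl into the nose between days 4 and 17 of gestation. ILC2s, defined in adult lungs as CD45+ lineage- CD90.2+ ST2+ cells, came from offspring labelled as 8 weeks old, within a protocol range of 7 to 9 weeks, and the labels name no treatment of the offspring. About 3000 cells went into each library, 1 for the offspring of mothers given PBS (control mothers) and 1 for those of mothers given OVA (asthmatic mothers). With 1 library per group nothing separates the mothers' treatment from the library, no test between groups was possible, and every difference below is one between 2 peak lists. How many animals were pooled for each library is not given in the sources used here.

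A cell enters the cycle when D cyclins with CDK4 or CDK6 and then E cyclins with CDK2 phosphorylate RB and free the E2F factors, which drive genes for DNA synthesis. Before that, the origin recognition complex and CDC6 load the MCM2-7 helicase onto origins, the step called licensing, and CDC45 later helps to start it. Cyclin A and B with CDK1 and CDK2 carry the cell through S phase and mitosis, CDC20 then directs the anaphase-promoting complex, and the CDK inhibitors hold these kinases back. H3K4me3 is found at the start of most genes with CpG-rich promoters, and it does not by itself measure how much RNA a gene makes.

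A peak within 1000 bp of any annotated transcript start of a gene is called a start peak. The list from offspring of control mothers held 42126 peaks and that from offspring of asthmatic mothers 51610. The fold of a peak is its summit signal over the local background, each with 1 added, and the number of fragments at a summit was solved from the fold and the −log10 p. The smallest background solved was 1.83 fragments in the control list and 1.57 in the asthmatic list. Taken over windows of the smallest peak width, 190 and 156 bp, these are 96.1 and 100.4 fragments per 10 kb. A reporting summary of the study gives a total depth for the ChIP-seq and no depth for each library. Folds and fragment numbers were therefore not scaled between libraries, and ranks were taken within each list. Start peaks were listed at 12 of 15 ILC2 markers in the control list and 8 of 15 in the asthmatic list, and Icos, Klrg1 and Il13 had none in either list. Markers of T cells, B cells, macrophages, neutrophils and fibroblasts had none in either list. Of epithelial markers 2 of 5, Epcam and Cdh1, and of endothelial markers 1 of 4, Kdr, had one in the control list alone, and their part in the results below was not tested.

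Upstream sequences of 7 members are given first because they span the range of marking, from the highest start peak to none, and 6 of the 7 hold at least 1 of 3 elements known from cell cycle promoters. Each line holds the 200 bases before the start of the gene's principal transcript on GRCm38, read from the RefSeq copy of that assembly in the direction of transcription. Capitals mark exact matches on either strand to the E2F element (spelled TTTCCCGC, TTTCGCGC, TTTGCCGC or TTTGGCGC), the cell cycle genes homology region (CHR, TTTGAA) and the CCAAT box (CCAAT, the letters bound by NF-Y). Mcm3 held the highest start peak of the members in both lists, and E2f1 had the largest positive difference in rank between the lists. Mcm5 and Mcm6 had the most E2F elements near their starts (3 each). Cdk1 and Ccnb2 hold matches to CHR and CCAAT elements, which are known from mitotic genes, and Cdk4 had no start peak in either list.
Mcm3, chr1:20820313-20820512, minus strand: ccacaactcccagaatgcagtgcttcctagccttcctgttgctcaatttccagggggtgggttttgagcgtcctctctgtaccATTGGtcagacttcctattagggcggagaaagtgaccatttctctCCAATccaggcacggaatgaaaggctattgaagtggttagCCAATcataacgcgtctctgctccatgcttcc
Mcm5, chr8:75109369-75109568, plus strand: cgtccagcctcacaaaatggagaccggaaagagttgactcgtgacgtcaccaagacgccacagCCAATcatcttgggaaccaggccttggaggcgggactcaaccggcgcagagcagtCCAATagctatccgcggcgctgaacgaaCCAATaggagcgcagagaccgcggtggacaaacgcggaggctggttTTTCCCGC
Mcm6, chr1:128359665-128359864, minus strand: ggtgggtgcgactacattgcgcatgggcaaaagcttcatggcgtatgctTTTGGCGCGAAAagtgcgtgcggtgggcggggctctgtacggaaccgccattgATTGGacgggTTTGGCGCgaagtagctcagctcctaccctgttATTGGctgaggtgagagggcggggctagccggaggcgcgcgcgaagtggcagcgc
E2f1, chr2:154569893-154570092, minus strand: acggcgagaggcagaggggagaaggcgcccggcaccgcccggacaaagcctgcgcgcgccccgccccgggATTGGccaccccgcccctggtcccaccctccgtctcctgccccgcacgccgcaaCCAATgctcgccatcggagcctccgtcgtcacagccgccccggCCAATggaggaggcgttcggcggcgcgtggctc
Cdk1, chr10:69352939-69353138, minus strand: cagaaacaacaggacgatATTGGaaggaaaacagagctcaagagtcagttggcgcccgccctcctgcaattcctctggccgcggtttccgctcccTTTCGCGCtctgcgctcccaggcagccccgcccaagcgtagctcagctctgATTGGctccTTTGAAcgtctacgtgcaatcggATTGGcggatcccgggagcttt
Ccnb2, chr9:70421548-70421747, minus strand: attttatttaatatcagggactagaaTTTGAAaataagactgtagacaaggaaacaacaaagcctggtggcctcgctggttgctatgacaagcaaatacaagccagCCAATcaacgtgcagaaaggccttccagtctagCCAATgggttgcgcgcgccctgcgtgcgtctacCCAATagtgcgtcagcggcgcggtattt
Cdk4, chr10:127063334-127063533, plus strand: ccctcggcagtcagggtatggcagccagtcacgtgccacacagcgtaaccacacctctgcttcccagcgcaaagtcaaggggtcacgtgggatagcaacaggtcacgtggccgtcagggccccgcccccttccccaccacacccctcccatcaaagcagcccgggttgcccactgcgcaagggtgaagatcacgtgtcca
The stretch of Mcm6 held 3 E2F matches, of which 2 on opposite strands overlap and form 1 run of capitals. Mcm5 held 1 E2F match, which ends at the base before the start, beside 3 CCAAT boxes. In Cdk1 an E2F match lay 105 to 98 bases before the start, and a CHR 45 to 40 bases before it with CCAAT boxes on both sides. Ccnb2 held a CHR 174 to 169 bases before the start, farther from it than its 3 CCAAT boxes. Mcm3 and E2f1 each held 3 CCAAT boxes, and Cdk4 held no match to these 3 motifs. The remaining E2F matches of Mcm3, Mcm5 and E2f1 that are counted further on lie outside the stretches printed. In the larger window searched there, Cdk1 and Ccnb2 each had 2 CHR matches, not all of them inside the stretches printed.

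Nearly all members were marked in the control list. A start peak was listed for 83 of 92 members there (90.2%, exact Clopper-Pearson 95% interval 82.2 to 95.4%), against 52.5% of all autosomal protein-coding genes. In the asthmatic list 65 of 92 members had a start peak (70.7%, interval 60.2 to 79.7%), against 43.7% of all genes. All 65 were also marked in the control list, so 70.7% of members and 43.1% of all genes had a start peak in both. The other 18 members marked in the control list had none in the asthmatic list (19.6%, against 9.37% of all genes). No member was marked in the asthmatic list alone (0 of 92, interval up to 3.93%, against 0.634% of all genes). The intervals cover counting error only, and members were not drawn at random.

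Members also differed from the average gene in promoter type, in being rich in CpG. The ratio of observed to expected CpG in the 250 bases before to 50 bases after the principal start had a median of 0.851 in members and 0.574 in all 20719 windows read. Among windows above 0.6, a start peak was listed in the control list for 69 of 75 members (92%) and 83.1% of all such genes. In the asthmatic list these numbers were 55 of 75 members (73.3%) and 70.9%.

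The share of control-marked members without an asthmatic peak lay near the background of all genes. Of the members with a control start peak, 18 of 83 had none in the asthmatic list (21.7%, interval 13.4 to 32.1%), against 17.9% of all genes with a control start peak. These were the weaker peaks of the control list. When all genes with a control start peak were cut by rank into 3 equal groups, the share in the lowest group was 15 of 33 members (45.5%, interval 28.1 to 63.6%) against 40.9% of all genes. In the middle group it was 3 of 29 members (10.3%, interval 2.19 to 27.4%) against 9.18%, and in the highest group 0 of 21 members (interval up to 16.1%) against 3.46%. The median control percentile was 16.1 for the 18 members marked in the control list alone, with a range of 0.655 to 41.1, and 56.9 for the 65 marked in both.

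**Figure D1:**
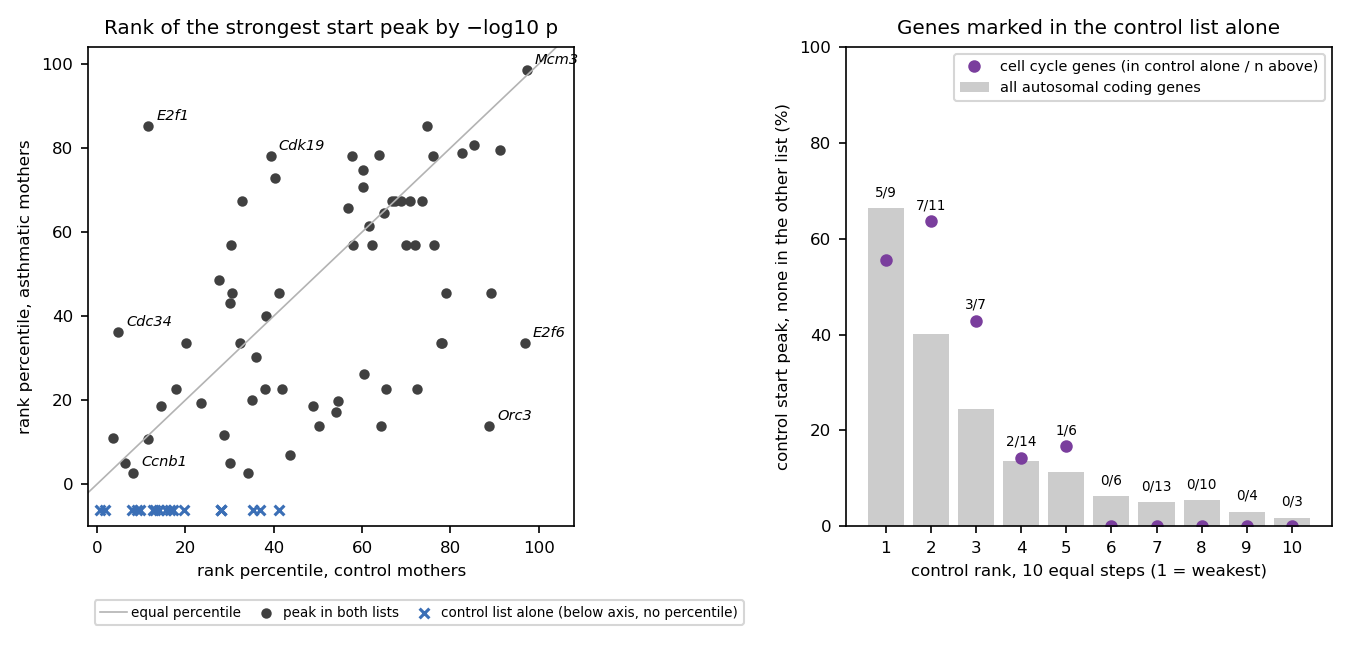
Left, rank percentile of the strongest start peak by −log10 p in offspring of control mothers (x axis) and asthmatic mothers (y axis), for 65 members marked in both lists, with 18 members of the control list alone as crosses below the axis at their control percentile. Right, percent of genes with a control start peak that had none in the asthmatic list, in 10 equal steps of the control rank, for all autosomal protein-coding genes (bars) and members (points, with their numbers); all 18 crosses lie at or under a control percentile of 41.1, and no member in the upper 5 steps is without an asthmatic peak.

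The members marked in the control list alone were spread over most roles. They comprised 2 mitotic or S phase cyclins (Ccna2, Ccnb2), 5 CDKs (Cdk5, Cdk6, Cdk14, Cdk18, Cdk20), 1 inhibitor (Cdkn2b), 1 E2F factor (E2f2), 5 licensing or origin-firing genes (Mcm2, Mcm7, Mcm10, Orc1, Orc5), the phosphatases Cdc25b and Cdc25c, Cdc20 and Cdc42bpb. Some lay close to the limit of 1000 bp, since the nearest asthmatic peak was 1025 bp from a start of Cdk6, 1742 bp from Cdk5 and 2173 bp from Mcm10. The nearest was 3556 bp away at Mcm2, 4294 bp at Mcm7 and 81599 bp at Ccnb2. Among strongest peaks counted as start peaks, the gap to a start reached 585 bp in the control list (Cdc42bpa) and 618 bp in the asthmatic list (Cdkn1a).

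A start peak was missing from both lists at 9 of 92 members. Of all genes, 52.5% had one in the control list and a further 0.634% in the asthmatic list alone. The 9 members were Cdk4, Cdc6, the germline cyclin Ccna1, Cdk15, Cdc20b, Cdc34b, Ccnb1ip1, Cdc42ep1 and Cdc42ep5. Cdk4, the partner of D cyclins (chr10:127063534-127067920, plus strand), had its nearest peak 3160 bp from the start in the control list and 3182 bp in the asthmatic list. For Cdc6, the loader of the helicase (chr11:98907801-98923940, plus strand), these distances were 7304 and 7323 bp. Of the 75-base stretches within 500 bp of either start, 0% had a second exact copy in the genome. The other 7 had their nearest peak in either list between 10216 bp (Ccnb1ip1) and 64439 bp (Cdc34b) away.

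**Figure D2:**
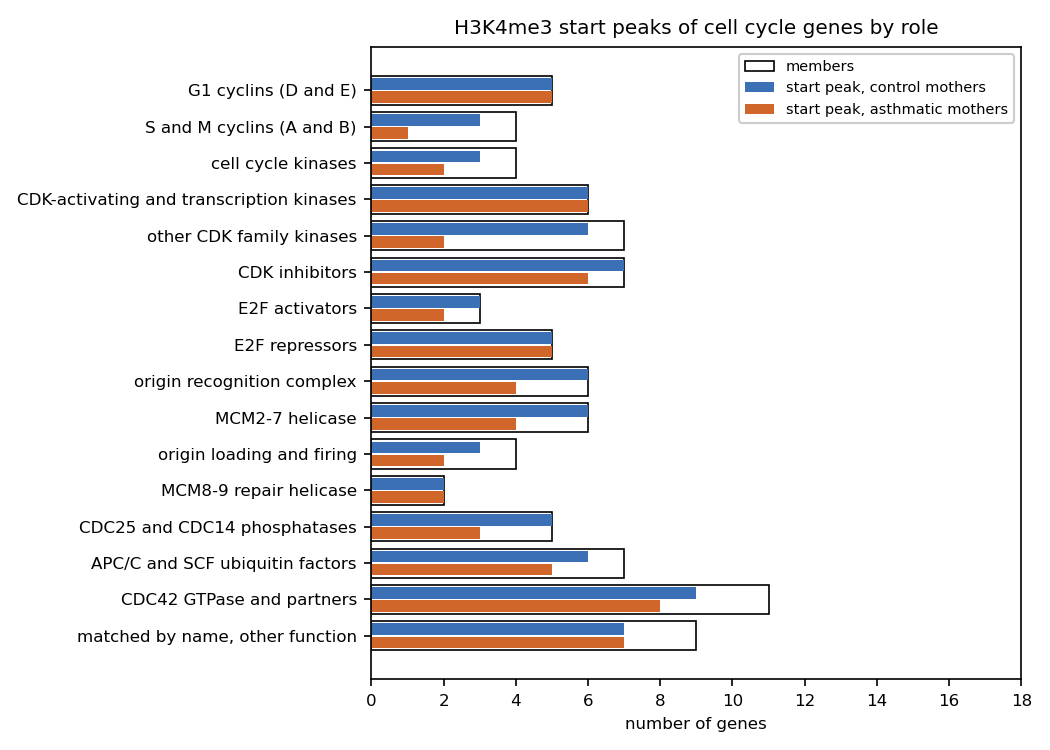
Number of genes with a start peak in offspring of control mothers (blue) and asthmatic mothers (orange) for each of 16 roles, with the number of members as the open bar; Cdc5l, in no role and marked in both lists, is left out. All 5 G1 cyclins are marked in both lists, and of the A and B cyclins 3 of 4 in the control list and 1 of 4 in the asthmatic list, beside 52.5% and 43.7% of all genes; differences between roles were not tested.

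All 5 D and E cyclins, which act in G1, had a start peak in both lists, beside 43.1% of all genes. Ccnd2, whose protein partners CDK4 and CDK6, had 43 summit fragments in the control list (exact Poisson 95% interval 31.1 to 57.9), the most of any member, and 19 (11.4 to 29.7) in the asthmatic list. Its background was also the highest of the members, at 8.02 and 3.84 fragments, so that its folds were 4.88 and 4.13 and its percentiles 54.2 and 17.3. Ccnd3 had 35 and 20 fragments at percentiles of 61.7 and 61.5. Ccnd1 was lower, with 19 and 12 fragments at percentiles of 11.6 and 10.7. The E cyclins Ccne1 and Ccne2 each had 23 fragments in the control list, and 14 and 15 in the asthmatic list.

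Of the A and B cyclins, which act from S phase to mitosis, only Ccnb1 was marked in both lists, and it was near the bottom of each. Ccnb1 had 15 fragments (8.40 to 24.7) and a percentile of 8.29 in the control list, and 10 fragments (4.80 to 18.4) and 2.77 in the asthmatic list. Ccna2, the somatic cyclin A, had 12 fragments in the control list (6.20 to 21.0), a fold of 4.60 and a percentile of 1.86. Ccnb2 had 16 fragments (9.15 to 26) and a percentile of 13.2. All 3 control peaks lay at percentiles of 13.2 or less, in the lowest group, where 40.9% of all genes had no asthmatic peak.

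Of the 4 kinases that drive the cycle, 3 were marked in the control list and 2 in the asthmatic list, beside 52.5% and 43.7% of all genes. Cdk1, the mitotic kinase, had 22 fragments (13.8 to 33.3) in the control list and 11 (5.49 to 19.7) in the asthmatic list, with percentiles of 43.6 and 6.87. Cdk2, the kinase of S phase entry, had 26 (17.0 to 38.1) and 12 (6.20 to 21.0), with percentiles of 64.3 and 13.9, one of the 3 largest negative differences in rank. A start of Pmel, on the other strand, lies within 1000 bp of one of Cdk2. Cdk6 had 28 fragments over a background of 5.62 in the control list, a fold of 4.38 and a percentile of 15.7.

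The 6 kinases of the CDK-activating and transcription group, Cdk7, Cdk8, Cdk9, Cdk12, Cdk13 and Cdk19, were marked in both lists, beside 43.1% of all genes. Medians of the 6 kinases were 28.0 fragments in the control list and 16.5 in the asthmatic list. Cdk13 carried the widest asthmatic start domain of the members, 1710 bp, against 1303 bp in the control list, where a domain joins peaks at most 1000 bp apart. Cdk19, a kinase of the Mediator complex, had 26 and 20 fragments at percentiles of 39.3 and 78.0. Of the 7 other CDK family kinases 6 were marked in the control list and 2 in the asthmatic list, Cdk10 and Cdk17, beside 52.5% and 43.7% of all genes. Cdk14 was marked at 2 starts over 2000 bp apart in the control list, with 14 and 19 fragments, and at none in the asthmatic list. Of the others in the control list alone, Cdk5, a kinase best known from neurons, had 24 fragments at a percentile of 19.8, Cdk18 had 21 at 41.1 and Cdk20 had 17 at 17.3. Cdk5, Cdk14 and Cdk20 thus lay in the lowest of the 3 rank groups, where 40.9% of all genes had no asthmatic peak, and Cdk18 in the middle one, where 9.18% had none.

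**Figure D3:**
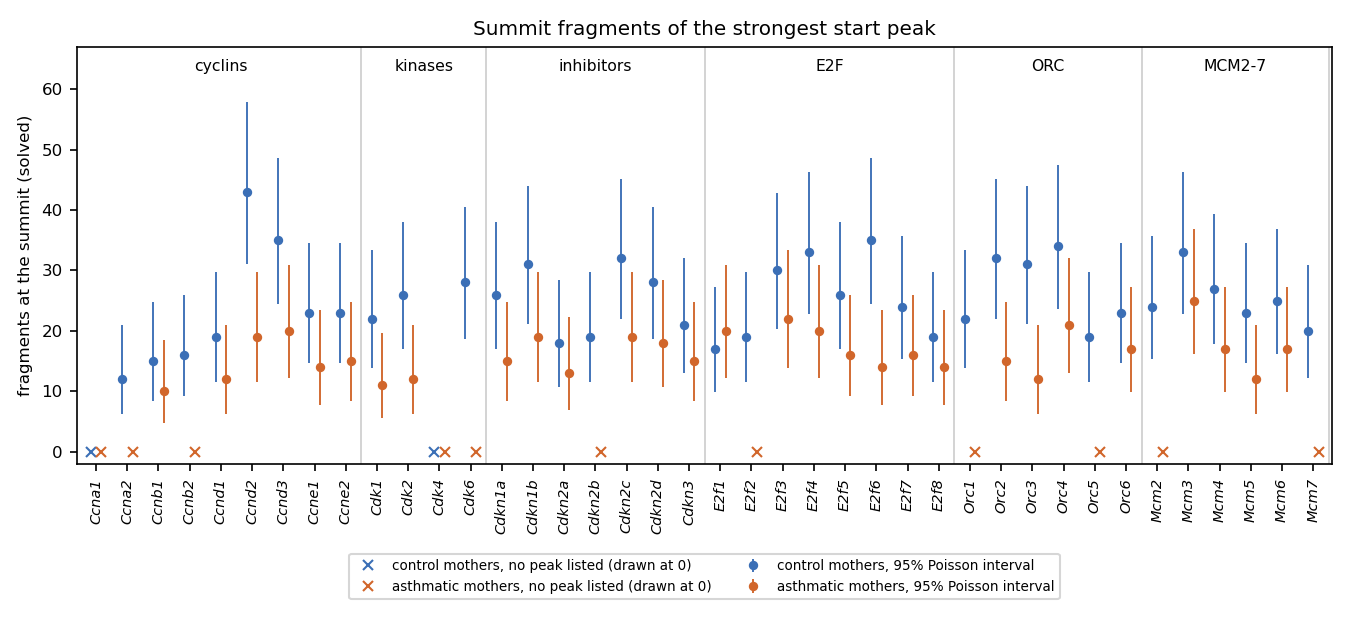
Solved fragments at the summit of the strongest start peak (y axis) for cyclins, cell cycle kinases, CDK inhibitors, E2F factors, ORC and MCM2-7 genes in offspring of control (blue) and asthmatic (orange) mothers, with exact Poisson 95% intervals and crosses at 0 where no peak was listed. Values are higher in the control list for nearly every gene, and E2f1 is the exception with 17 and 20 fragments; the intervals cover counting error only and the counts are not scaled between the libraries.

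All 7 CDK inhibitors were marked in the control list and 6 in the asthmatic list, beside 52.5% and 43.7% of all genes. Cdkn1b, encoding p27, had 31 fragments (21.1 to 44.0) and 19 (11.4 to 29.7), and its control domain was 1581 bp wide against 341 bp in the asthmatic list. Cdkn1a, encoding p21, had 26 and 15 fragments at percentiles of 28.8 and 11.8. Its window was poor in CpG (observed over expected 0.0892), and in both lists the peak lay at a downstream start, with the asthmatic summit 1081 bp beyond it. Cdkn2c, encoding p18, had 32 and 19 fragments and domains of 1622 and 1326 bp. Cdkn2d had 28 and 18 fragments, and Cdkn3, a phosphatase that acts on CDKs, had 21 and 15. At the locus that encodes p16 and p19ARF, Cdkn2a was marked at 1 of 2 groups of starts in both lists, the upstream start at position 89294653 of chromosome 4, with 18 and 13 fragments. Its neighbour Cdkn2b, encoding p15, had 19 fragments (11.4 to 29.7) in the control list alone.

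The E2F factors held the largest positive difference in rank and 1 of the 3 largest negative ones. E2f1, an activator of S phase genes, had 17 fragments (9.90 to 27.2), a fold of 5.55 and a percentile of 11.7 in the control list. In the asthmatic list it had 20 fragments (12.2 to 30.9), a fold of 7.60 and a percentile of 85.1. It was the only member with more fragments in the asthmatic list. The Poisson intervals cover counting error in unscaled counts only and do not bear on its difference relative to other genes. E2f3 had 30 and 22 fragments and percentiles of 40.4 and 72.7, and E2f2 had 19 fragments (11.4 to 29.7) in the control list alone.

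All 5 repressor E2F genes were marked in both lists, beside 43.1% of all genes. E2f6, a repressor of the Polycomb type, differed in the direction opposite to E2f1. It had 35 fragments (24.4 to 48.7), a fold of 10.9 and a percentile of 96.8 in the control list, and 14 (7.65 to 23.5), 5.85 and 33.5 in the asthmatic list. E2f4, which works with p107 and p130 in quiescent cells, had 33 and 20 fragments at percentiles of 85.3 and 80.8. E2f5 had 26 and 16 fragments, E2f7 24 and 16, and E2f8 19 and 14.

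In the licensing machinery, all 6 ORC and all 6 MCM2-7 genes were marked in the control list, and 4 of each in the asthmatic list, beside 52.5% and 43.7% of all genes. The 2 of 6 without an asthmatic peak in each complex stand beside 17.9% of all control-marked genes. Mcm3, a helicase subunit, had the highest −log10 p of the members in both lists, 30.1 and 21.3. It had 33 fragments (22.7 to 46.3) and a fold of 11.9 in the control list, and 25 (16.2 to 36.9) and 9.63 in the asthmatic list, at percentiles of 97.3 and 98.5. The control peak lay at chr1:20819813-20820312, over exon 1, and the asthmatic peak at chr1:20819879-20820300. Mcm6 had 25 and 17 fragments at percentiles of 66.8 and 67.4, and Mcm4, which shares its start region with Prkdc, had 27 and 17 at 64.8 and 64.5. These were different peaks, since the control summit lay at 205 bp from the Mcm4 start, downstream, and the asthmatic summit at −613 bp, upstream on the side of Prkdc. Mcm5 had 23 (14.6 to 34.5) and 12 (6.20 to 21.0) fragments, at 50.3 and 13.9.

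The 2 helicase subunits without an asthmatic peak had low control ranks. Mcm2 had 24 fragments (15.4 to 35.7) over a background of 4.03, a fold of 4.97 and a percentile of 16.5. Mcm7, beside Ap4m1 on the other strand, had 20 (12.2 to 30.9), a fold of 5.2 and a percentile of 12.7. The origin recognition genes, which mark where replication can begin, varied in rank. Orc2 had 32 and 15 fragments at percentiles of 89.2 and 45.6, Orc4 34 and 21 at 76.0 and 78.0, and Orc6 23 and 17 at 32.8 and 67.4. Orc3 had the largest negative difference of all members, with 31 fragments (21.1 to 44.0) at 88.7 and 12 (6.20 to 21.0) at 13.9. Its control summit lay 172 bp upstream of the Orc3 start, toward Rars2, and its asthmatic summit 91 bp downstream. Orc1, which opens toward Prpf38a, had 22 fragments at a percentile of 35.4 and Orc5 had 19 at 28.0, both in the control list alone.

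Of the genes for origin loading and firing, Cdc45 and Cdc7 were marked in both lists. Cdc45, part of the active helicase, had 27 and 17 fragments at percentiles of 68.8 and 67.4. Cdc7, the kinase that phosphorylates MCM proteins, had 26 and 13 at 65.4 and 22.7. Mcm10 had 18 fragments (10.7 to 28.4) at a percentile of 7.90 in the control list alone. The related genes Mcm8 and Mcm9, which serve recombination, were marked in both lists. Mcm9 was marked at 2 groups of starts in both lists, with 29 and 28 fragments in the control list and 20 and 12 in the asthmatic list, and so was Ccnd3.

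Genes of mitotic exit and of the CDC25 and CDC14 phosphatases were marked in the control list with few exceptions. All 5 phosphatase genes had a control peak and 3 an asthmatic one, beside 52.5% and 43.7% of all genes. Cdc25a, which activates CDK2, had 21 and 13 fragments, while Cdc25b had 16 (9.15 to 26) and Cdc25c 15 (8.40 to 24.7) in the control list alone. Cdc14b was marked at 2 groups of starts in the control list and at 1 in the asthmatic list, where its 10 fragments (4.80 to 18.4) tied with Ccnb1 for the lowest −log10 p, 6.08. Of the 7 genes of the anaphase-promoting complex and SCF, 6 and 5 were marked. Cdc16, a subunit of that complex, had 32 and 19 fragments at percentiles of 91.3 and 79.4. Cdc20, its mitotic activator, had 21 (13.0 to 32.1) at 37.0 in the control list alone, and Cdc34, a ubiquitin-conjugating enzyme, had 15 in each list. The 75 bases at the asthmatic summit of Cdc34 have a second exact copy in the genome, the only such summit among the members.

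Of the 11 genes of the CDC42 group, 9 were marked in the control list and 8 in the asthmatic list, beside 52.5% and 43.7% of all genes. They included the widest control domain, 2082 bp at Cdc42ep3, which was marked at 2 groups of starts there and 1 in the asthmatic list, and 2 of the 3 lowest control peaks, Cdc42bpb (11 fragments, 5.49 to 19.7) and Cdc42ep2 (13, 6.92 to 22.2). In the asthmatic list Cdc42se1 was among the lowest, with 14 fragments and a −log10 p of 6.87. The other wide domains were 1663 bp at Cdk5 in the control list, and 1625 and 1312 bp at Orc4. Starts of Slc4a2 and Mbd5 lie within 1000 bp of those of Cdk5 and Orc4, and 20 members had the start of another protein-coding gene on the other strand within that distance. For the 19 of these with a start peak, the share of the neighbour in that peak cannot be told apart. Without the CDC42 group, the genes of other function and Cdc5l, 66 of 71 members were marked in the control list and 49 in the asthmatic list, beside the same shares of all genes.

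Across the 65 members marked in both lists, the asthmatic peaks were smaller and narrower, as they were over all genes. The smallest peak width also differed, at 190 bp in the control list and 156 bp in the asthmatic list, and its part in these sizes was not tested. Median summit fragments of these 65 were 27 in the control list and 16 in the asthmatic list, against 27 and 17 for all genes marked in both. The control list had more fragments at 63 of the 65, and at 97.3% of all genes marked in both. For 62 of the 65 the Poisson intervals of these unscaled counts overlapped, which is a description of counting error and no test. The share over all genes was not counted, so the exceptions, Ccnd2, E2f6 and Orc3, are not set apart from other genes by it. Median folds were 7.11 and 5.99 in these members and 7.51 and 6.21 in all genes marked in both. The ratio of asthmatic to control fold had a median of 0.832 in members and in all genes.

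Over all start peaks of each list, domains were 720 bp wide at the median for the 83 members of the control list and 422 bp for the 65 of the asthmatic list, and 663 and 407 bp for all genes. Among genes marked in both, the medians were 766 and 422 bp in members and 714 and 411 bp in all genes. For these the control domain was the wider at 62 of 65 members and at 92% of all genes. The ratio of asthmatic to control width had a median of 0.653 in members and 0.664 in all genes. Members had more than 1 start peak in 32 of 83 cases (38.6%, all genes 28.4%) in the control list and in 17 of 65 (26.2%, all genes 22.8%) in the asthmatic list.

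Ranks within each list allow the members to be placed without a common scale of signal. A percentile was taken among all genes with a start peak in that list, 10917 in the control list and 9100 in the asthmatic list. The base of the percentiles thus differs between the lists. The median percentile was 40.4 for the 83 members of the control list (range 0.655 to 97.3) and 45.6 for the 65 of the asthmatic list (2.77 to 98.5). For those same 65 the control median was 56.9. Among members marked in both, the percentile was higher in the asthmatic list for 26 and lower for 39, with a median difference, asthmatic minus control, of −3.40 against −4.58 over all genes. The largest positive differences were those of E2f1 (73.5), Cdk19 (38.7) and Orc6 (34.6). The largest negative ones were −74.8 at Orc3, −63.3 at E2f6 and −50.4 at Cdk2. A difference beyond 50 in either direction was found for 4 of 65 members and for 10.6% of all genes. Percentiles of the asthmatic list rest on few fragments and are tied in places, since 32 of 65 members sat on the smallest background. At 9 of the 65, Ccne1, Cdc14b, Cdc42bpa, Cdc5l, Mcm4, Mcm8, Mcm9, Orc3 and Orc6, the strongest peaks of the lists did not overlap, so that the values compared are those of different peaks. How often this held over all genes was not counted.

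**Figure D4:**
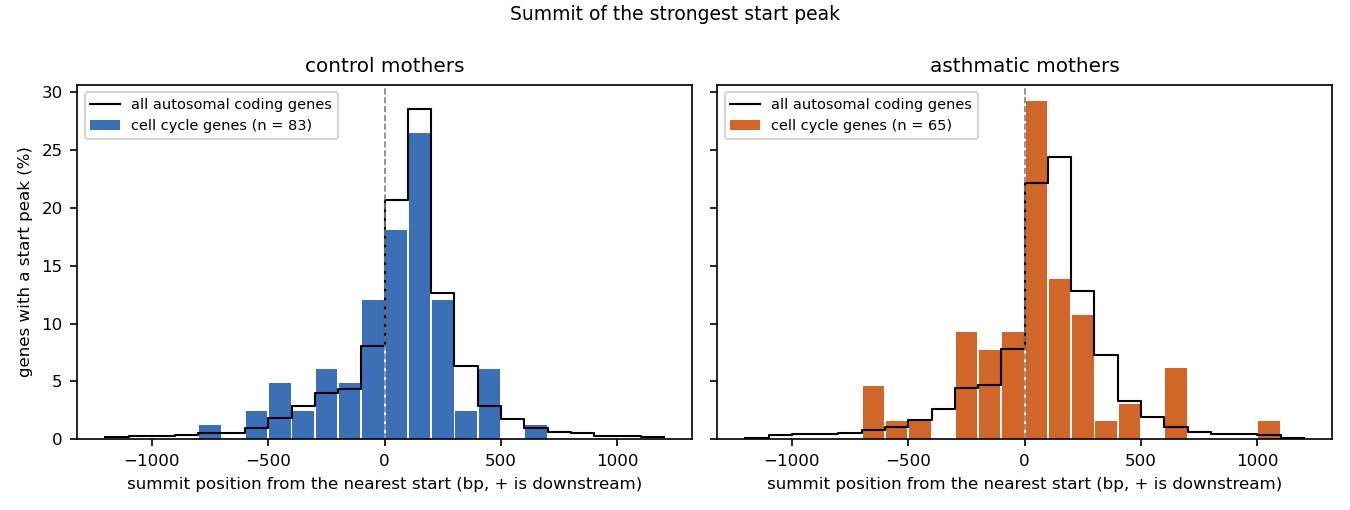
Position of the summit of the strongest start peak relative to the nearest start of the gene (x axis, bp, downstream positive, bins of 100 bp) as percent of genes with a start peak (y axis), for members (bars) and all autosomal protein-coding genes (line) in offspring of control mothers (left, n = 83) and asthmatic mothers (right, n = 65). Most summits lie within 250 bp of the start and downstream of it, with a smaller downstream share in members than in all genes.

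Summits lay mostly just downstream of the start, where the first nucleosomes of a transcribed gene carry the mark. In the control list 55 of 83 members (66.3%) had the summit downstream, against 75.5% of all genes, and in the asthmatic list 43 of 65 (66.2%) against 74.8%. Median positions were 89 and 67 bp downstream in members and 114 and 109 bp in all genes. In the control list 59 of 83 summits (71.1%, all genes 71.9%), and in the asthmatic list 45 of 65 (69.2%, all genes 68.8%), were within 250 bp of a start.

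Promoter elements were searched on both strands from 250 bases before to 50 after the principal start. An E2F element was found in 16 of 92 members (17.4%), in 2.94% of all 20719 windows and in 4.37% of those of genes with a control start peak. The members were Mcm3, Mcm4, Mcm5, Mcm6 and Mcm8, Orc1 and Orc3, E2f1, E2f2 and E2f7, Cdk1, Cdk2, Cdc6, Cdc25a, Cdkn2a and Cdc42bpa. Of these, 13 were marked in both lists, 2 in the control list alone (E2f2, Orc1) and 1 in neither (Cdc6). Over all 475 genes with an E2F element and a control start peak, 14.3% had none in the asthmatic list. A CHR was found in 14 members (15.2%), in 15.1% of all windows and in 11.6% of those of genes with a control start peak. For the CCAAT box these were 43 members (46.7%), 38.2% and 38.3%, and for the GC box (GGGCGG) 66 members (71.7%), 46.2% and 65.9%. Of the 14 with a CHR, 9 were marked in both lists and 5 in the control list alone, namely Ccnb2, Cdc20, Cdc25c, Cdkn2b and Mcm2. Of all 1257 genes with a CHR and a control start peak, 18.5% had none in the asthmatic list, beside 35.7% of these members. The difference was not tested. All of the 5 but Cdc20 had control percentiles of 28.0 or less, in the lowest rank group, where 40.9% of all genes had no asthmatic peak. With a CCAAT box, 33 members were marked in both lists and 9 in the control list alone, and 18.1% of such control-marked genes had no asthmatic peak. For the GC box these were 48, 13 and 16.2%. A match describes letters in a window and not a bound site.

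Other genes of the same pathway, which the names do not reach, were counted in the same way. Of 76 such genes, 73 (96.1%) had a start peak in the control list and 62 (81.6%) in the asthmatic list, beside 52.5% and 43.7% of all genes. The 11 marked in the control list alone were 15.1% of the 73, beside 17.9% of all control-marked genes. All 12 genes of the RB family and DREAM complex were marked in the control list and 9 in the asthmatic list, and of 11 CDK partners and regulators 11 and 10. Of 30 further licensing and replication genes 28 and 23 were marked, and of 23 mitosis and checkpoint genes 22 and 20. Neither list had a start peak at Gins2, Tk1 or Bub1. Median percentiles in the control and asthmatic list were 39.6 and 76.1 for the RB and DREAM genes, 64.8 and 40.8 for the CDK partners, 59.4 and 52.6 for licensing and 41.7 and 37.97 for mitosis. Of the 62 marked in both, 28 had the higher percentile in the asthmatic list and 34 the lower, with a median difference of −5.05 against −4.58 over all genes. The largest negative differences were those of Birc5 (−63.8), Ccnh (−63.1) and Rpa3 (−61.5), and the largest positive ones those of Top2a (68.5), Lin9 (62.0) and Cenpa (53.7). The proliferation marker Mki67 had 30 fragments in the control list and percentiles of 68.3 and 64.5, and Top2a, encoding the topoisomerase of dividing cells, had percentiles of 20.6 and 89.0. Pcna, the replication clamp, stood at 78.0 and 57.0, Rb1 at 64.1 and 91.8, and Gmnn, the inhibitor of licensing, at 69.6 and 91.5. Cdt1, the licensing factor that geminin holds back, had 38 fragments and a percentile of 95.9 in the control list and no start peak in the asthmatic list.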

How the data were processed

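H3K4me3 CATCH-seq, a native ChIP with MNase-cut chromatin and carrier, was deposited as 1 peak list per library. The authors trimmed reads with Trim Galore 0.6.10 and Cutadapt 4.4, aligned them to GRCm38 with Bowtie 2 2.5.2 and removed duplicates with Sambamba 1.0.0; the peak caller, its threshold and its control are not given in the sources used here. Each deposited peak has a score, a fold (a ratio), a p-value as −log10 p and a q-value as −log10 q. A reporting summary of the study states that no peaks were called and that the experiment was done once.

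Peaks were placed on GENCODE vM21 starts with Python 3.11.15, numpy 2.4.6, pandas 2.3.3 and scipy 1.17.1. Fragments and background at summits were derived from these folds and −log10 p under a Poisson model with no control and were whole within 0.02 for 100% of peaks. They are derived values. Each gene was ranked by its strongest start peak. Scripts were tested on simulated data. Named genes included all cyclins, core CDKs, inhibitors, E2F, ORC and MCM2-7 genes, members marked in 1 list or none, and the 3 extremes of each measure. Some members of other roles and chosen genes of the pathway outside the names were also given with values. Members, lists and tests were chosen with earlier results of these data known. Alternatives changed the distance to a start, the annotation of starts, the peaks kept, the ranking measure and the joining distance.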

Additional observations from a re-analysis of the deposited data

How the results depend on the processing

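No paired analysis was possible because each group had 1 library. Of 90 alternatives, 80 stayed within 1.5 times the count or within the interval of the median reported. Keeping the 10000 peaks of each list with the highest −log10 p left 47 members marked in the control list, 10 in the asthmatic list, 9 in both, 38 in the control list alone and 1, E2f1, in the asthmatic list alone. The shares of all genes marked were then 33.8% and 9.82%, and 73.7% of all genes marked in the control list were marked there alone. The same setting gave a median asthmatic percentile of 7.11, a median difference of −39.8 and a control domain of 577 bp. Counting each peak for its nearest gene put 1 member, Cdc123, in the asthmatic list alone, by construction where neighbours share a start region. Without joining, the control domain was 524 bp, the width of single peaks. With a −log10 q of at least 5, no count or median moved beyond these limits. The depth of each library is not given in the sources used here, and 10 to 25 fragments at asthmatic summits limit every rank and interval there.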
